A study of Drosophila melanogaster with 2 samples.

Results

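Myb peaks on chromosome 4 of Drosophila melanogaster are described here, in chromatin of whole embryos immunoprecipitated for a Myb-GFP fusion protein. They were taken as every entry on that chromosome in the peak list called on the pooled alignments, 363 of 30000 entries. Of these, 33 were also in the called set of 6100 peaks that the submitters selected by the irreproducible discovery rate (IDR), a measure of how well peaks hold between replicates. The submitters' name for the pooled list gives it as peaks and background, the input for IDR. Its entries are referred to as peaks below, but those outside the called set may be background. Embryos were aged 0 to 24 h, with both sexes together. They came from a transgenic line that stably expresses Myb with GFP fused to its C terminus, and an anti-GFP antibody was used. The samples form 1 group of 2 biological replicates, and the control library was not analysed here. The labels give the line as an insertion aimed at Myb, and do not state which promoter drives the fusion gene or whether the line also carries the unmodified Myb gene. Positions are on build dm6, counted from 1, and genes are those of the Ensembl BDGP6 annotation.

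Myb is a DNA-binding subunit of Myb-MuvB, a complex that in flies is known for activating genes of mitosis and that shares subunits with the repressor complex dREAM. Its Mip120 subunit binds the cell cycle homology region (CHR), and Myb binds its own site. Chromosome 4 is the smallest autosome of the fly. It is rich in transposable elements and carries marks of heterochromatin such as HP1a along most of its length, yet many of its genes are transcribed in the embryo and are coated by a protein that binds this chromosome, POF.

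The sequences below cover the summit and 50 bases on either side of it for 8 called peaks. They are the leading promoters, the 3 strongest peaks away from promoters, the onecut and Dyrk3 to Cadps summits for their Myb sites, and a summit between RpS3A and pan for its 2 copies of GTTGCCA. They run 5′ to 3′ on the plus strand of the RefSeq dm6 genome. Capitals mark the Myb site (CAACGG or TAACGG), the CHR word (TTTGAA or TTCGAA), the DNA replication-related element, DRE (TATCGATA), and the word GTTGCCA, all on either strand. GTTGCCA was picked out after the sequences of the called summits had been read.
ey promoter (chr4:697571-697671): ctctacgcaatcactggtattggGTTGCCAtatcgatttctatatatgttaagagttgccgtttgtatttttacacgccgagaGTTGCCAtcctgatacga
Actbeta promoter (chr4:1084833-1084933): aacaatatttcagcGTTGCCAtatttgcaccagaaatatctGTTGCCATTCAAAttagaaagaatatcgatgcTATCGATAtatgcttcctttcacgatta
intergenic, between dati and lgs (chr4:424745-424845): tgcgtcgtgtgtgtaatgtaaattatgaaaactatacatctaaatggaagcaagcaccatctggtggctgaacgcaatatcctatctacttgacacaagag
intergenic, between ci and RpS3A (chr4:63406-63506): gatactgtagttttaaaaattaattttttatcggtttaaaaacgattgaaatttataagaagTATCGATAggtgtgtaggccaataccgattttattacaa
Asator intron (chr4:486664-486764): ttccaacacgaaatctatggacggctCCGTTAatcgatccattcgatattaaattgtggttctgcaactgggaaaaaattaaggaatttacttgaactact
intergenic, between RpS3A and pan (chr4:68692-68792): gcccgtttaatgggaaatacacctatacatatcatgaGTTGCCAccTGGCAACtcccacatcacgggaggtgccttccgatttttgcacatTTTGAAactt
onecut promoter (chr4:607683-607783): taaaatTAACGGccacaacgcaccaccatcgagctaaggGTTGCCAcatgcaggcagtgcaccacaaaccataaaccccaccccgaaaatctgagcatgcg
between Dyrk3 and Cadps (chr4:1230732-1230832): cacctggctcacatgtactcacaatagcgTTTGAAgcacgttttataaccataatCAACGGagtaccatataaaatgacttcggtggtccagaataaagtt
The ey window held GTTGCCA at 2 places and no Myb site or CHR word. The Actbeta window held GTTGCCA at 2 places, with a CHR word directly after one of them, and a DRE. The Asator intron, the onecut promoter and the interval between Dyrk3 and Cadps held a Myb site each, and only the last of these 3 also held a CHR word.

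Few peaks of chromosome 4 were called. The signal of a peak is the submitters' own value, on a scale that is not stated, and it can be ranked only within a list. The called set was exactly the strongest 6100 pooled peaks, so call shares and pooled signals are not separate results. Of the 363 peaks, 33 (9.09%) were called, against a background of 20.3% over all 30000 pooled peaks and 20.5% on the other 5 arms (2L, 2R, 3L, 3R and X), where the lowest arm had 18.1%. Pooled peaks had a density of 269 per Mb on chromosome 4 and 224 per Mb on the other arms, whereas called peaks had 24.5 per Mb on chromosome 4 and 45.8 per Mb on the others. The higher pooled density was seen in 1 replicate only. The relaxed list of replicate 1 had 219 peaks per Mb on chromosome 4 and 224 on the other arms, and that of replicate 2 had 274 on chromosome 4 and 224 on the others. The median pooled signal was 35.1 on chromosome 4 and 41.2 on the other arms, and the median among called peaks was 143 on chromosome 4 and 183 on the other arms. In each replicate alone the same number of strongest peaks as in the called set was taken. Replicate 1 then had 43 on chromosome 4, 14.6% of its 295 peaks there against 20.4% on the other arms, and replicate 2 had 29, 7.84% of its 370 peaks there against 20.5%. Both replicates thus lay below the other arms, but the 2 shares on chromosome 4 were far apart. With 1 group, no test was run between arms, and the peaks of 1 list are not replicates.

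The difference was larger at promoters, defined as summits within 500 bp of a transcription start site (TSS). On chromosome 4, 17 of 110 promoter peaks (15.5%) were called, against a background of 39.4% over all pooled promoter peaks and between 38.3% and 42.1% on each of the other arms. Away from promoters, 16 of 253 peaks (6.32%) were called, against a background of 9.2% over all such peaks. Promoters therefore held 51.5% of the called peaks on chromosome 4 and 71.6% on the other arms. Ranked by replicate 1 the share was 60.5% on chromosome 4 and 72.4% on the others, and ranked by replicate 2 it was 48.3% and 70.7%.

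**Figure D1:**
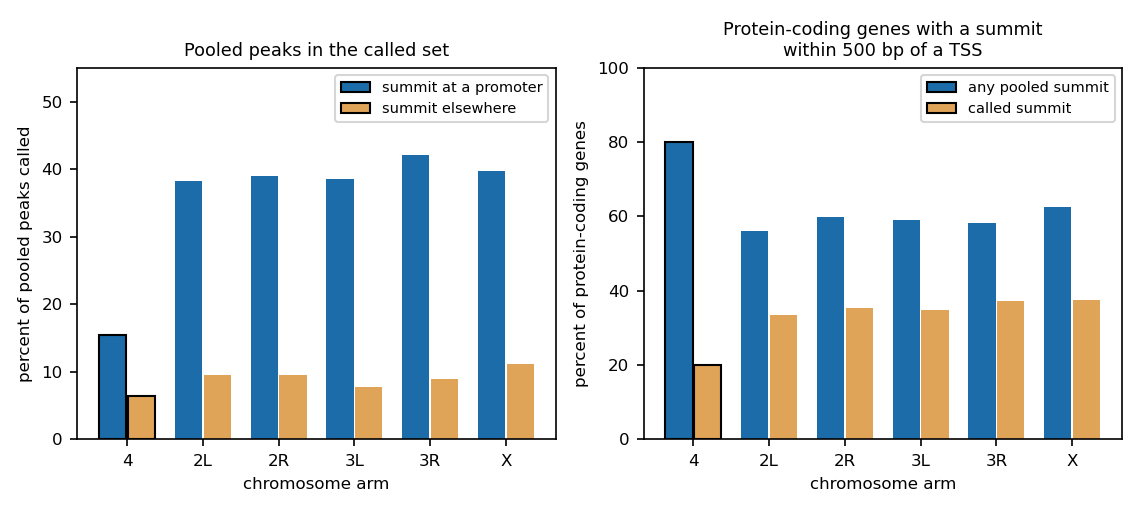
Percent of pooled peaks that were called, by place of the summit (left), and percent of protein-coding genes with a summit within 500 bp of a TSS (right), for chromosome 4 (outlined bars) and the other 5 arms. On chromosome 4, 15.5% of promoter peaks were called, against at least 38.3% on each other arm. Of its genes, 80% had a pooled summit, against at most 62.4%, a share that was not computed for each replicate.

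The ey promoter had by far the strongest peak of the chromosome. ey (FBgn0005558) encodes a Pax6 transcription factor that directs eye development. Its peak, chr4:697289-697881, had a pooled signal of 2606, rank 59 of all 30000, with 1389.7 in replicate 1 and 1221 in replicate 2. The summit at 697621 lay 68 bp upstream of the first of 3 annotated ey TSSs, at 697689. A second called summit, at 696829, lay in the same 1633 bp gap between ey and the oppositely oriented gene myo, which encodes the TGF-beta ligand myoglianin. It was 774 bp upstream of the myo TSS, with a pooled signal of 238 and with 165 in replicate 1 and 82.6 in replicate 2. These were the only 2 pooled peaks in that gap, and both replicates placed the ey summit far above the second one.

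Actbeta (FBgn0024913), which encodes the TGF-beta family ligand activin-beta, had the second strongest peak. At chr4:1084671-1085132 the pooled signal was 1392, rank 200, with 766 in replicate 1 and 631 in replicate 2. The summit, 1084883, lay 87 bp upstream of its single TSS. No other peak on the chromosome reached 1000, and 5 further peaks lay between 300 and 1000, each of them away from promoters.

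Those 5 stronger peaks lay between genes or inside them. The first, with its summit at 424795, had a pooled signal of 408, with 224 in replicate 1 and 184 in replicate 2. It lay in the gap of 41351 bp between dati, a zinc finger gene, and lgs, 1272 bp upstream of the noncoding RNA gene lncRNA:CR43437. That gap held 14 pooled peaks, of which 4 were called. The others were at 416548, with a pooled signal of 318 (replicates 179.8 and 139), at 407028, with 184 (105 and 80.9), and at 415705, with 100.3 (60.5 and 41.3). The second of the 5, at 63456, had a pooled signal of 364, with 186 and 179.9 in replicates 1 and 2. It lay between ci, which encodes the Gli factor of Hedgehog signalling, and RpS3A, 1769 bp beyond the 3′ end of RpS3A. Its window held a DRE.

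An intron of Asator, a gene for a tau-tubulin kinase-like protein, held a called summit at 486714 with a pooled signal of 359, and 179 and 186 in replicates 1 and 2. It was 681 bp upstream of an internal Asator TSS. A further called summit at 489523, with 200.4, lay 529 bp upstream of the gene's first TSS, and the one at 481960, with 99.4, lay 10 bp downstream of its most internal TSS. The remaining peak above 300 lay at 1113314, with a pooled signal of 333 and with 158 and 175 in replicates 1 and 2. It lay where the 3′ ends of Cals, the calsyntenin gene, and sv, which encodes a Pax2 factor, overlap, 9651 bp from the nearest TSS. Within each replicate's own list, all 5 of these peaks lay below the ey and Actbeta peaks.

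**Figure D2:**
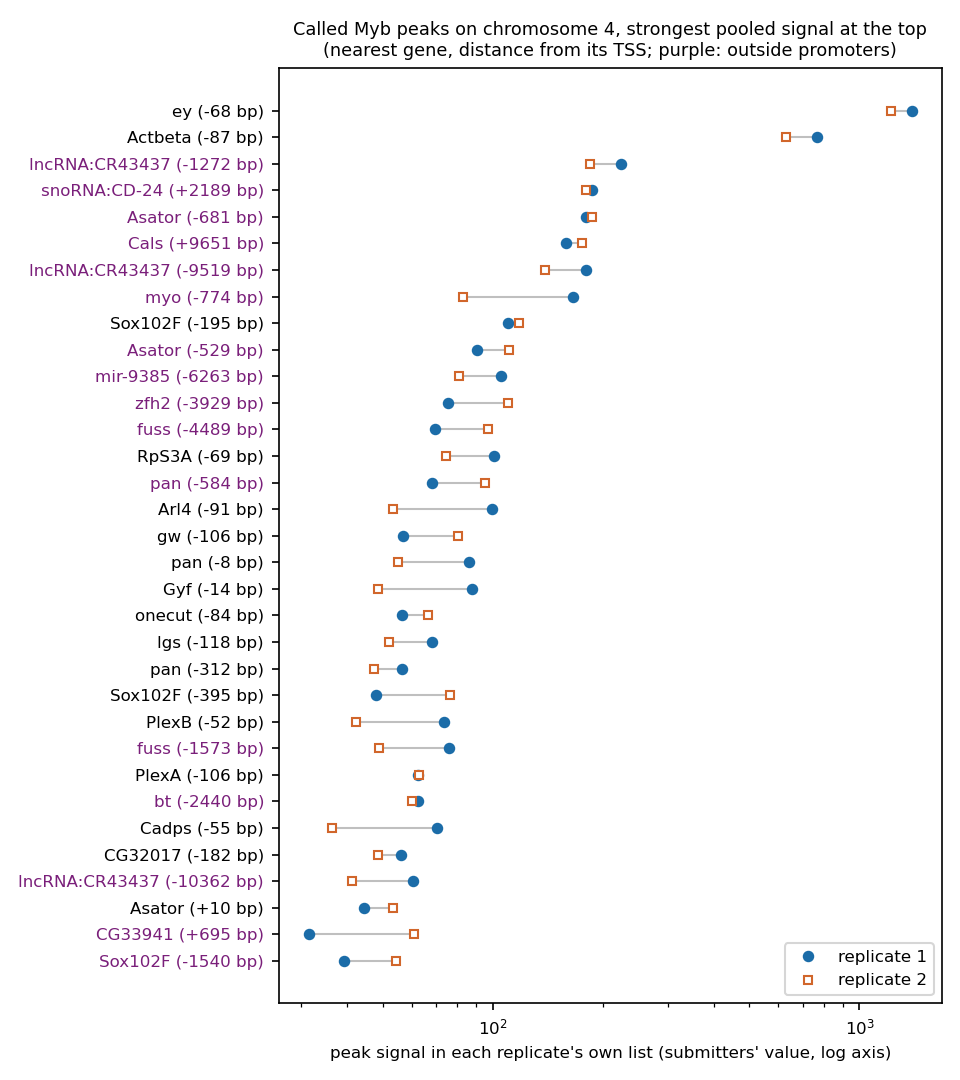
Signal of the 33 called peaks in replicate 1 (filled circles) and replicate 2 (open squares), each on the scale of its own list, ordered by pooled signal from top to bottom. Labels give the nearest gene by TSS and the distance from that TSS, with peaks outside promoters in purple. ey and Actbeta stand apart in both replicates, and the 6 peaks that follow them are all outside promoters.

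Several other gaps and genes held more than 1 called peak. Between RpS3A, a small ribosomal subunit gene, and the oppositely oriented gene pan, which encodes the TCF factor of Wnt signalling, the 2118 bp gap held 4 pooled peaks and all 4 were called. Their pooled signals were 165 at the RpS3A promoter (replicates 100.9 and 74.6), 157 at 68742 (68.3 and 94.9), 125 at 69014 (56.6 and 47.3) and 134 at 69318, 8 bp upstream of the first pan TSS (86.2 and 55.05). No one of the 4 led in both replicates. Sox102F, a SoxD family gene, had 2 called summits 200 bp apart at an internal TSS, with pooled signals of 229 (replicates 110.01 and 118) and 123 (47.8 and 76.5). A further one at 835933, upstream of its first TSS, had 95.4 (39.2 and 54.4). Between fuss, a Ski/Sno family gene, and toy, the second Pax6 gene of the chromosome, the gap of 11235 bp held called summits at 982978, with 168 (replicates 69.3 and 96.9), and at 980062, with 120.4 (75.9 and 49.03). Neither fuss nor toy had a called summit within 500 bp of a TSS.

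The remaining peaks among the 20 strongest lay at promoters, apart from 1. Arl4, an ARF-like GTPase gene, had 157, with 99.5 in replicate 1 and 53.5 in replicate 2. gw, which encodes the GW182 protein of microRNA silencing, had 143 at its internal TSS, with 56.9 and 80.4. Gyf, a gene for a GIGYF-family protein, had 134, with 87.9 and 48.6, and the homeodomain gene onecut had 126, with 56.5 and 66.6. The exception was at 497881, with a pooled signal of 179 and with 75.5 and 109.6 in the replicates, between Asator and zfh2, a zinc finger homeodomain gene. By rank within each replicate's own list, Arl4 and Gyf stood better in replicate 1, and gw and onecut better in replicate 2.

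Called promoter summits on chromosome 4 lay upstream of the TSS, with 1 exception. Of the 17, 16 were upstream of the nearest TSS, by 8 to 395 bp, against 79.4% on the other arms. The exception was that of Asator. Among all pooled promoter peaks, 64.5% were upstream on chromosome 4 and 62.1% on the other arms. Outside promoters, 13 of 16 called summits were upstream of the nearest TSS. Of all 33 called peaks, 29 were upstream of the nearest TSS and 8 lay inside a protein-coding gene. Of the 330 peaks that were not called, 120 were upstream and 235 lay inside a protein-coding gene. Apart from promoter summits, these counts were not computed for the other arms.

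**Figure D3:**
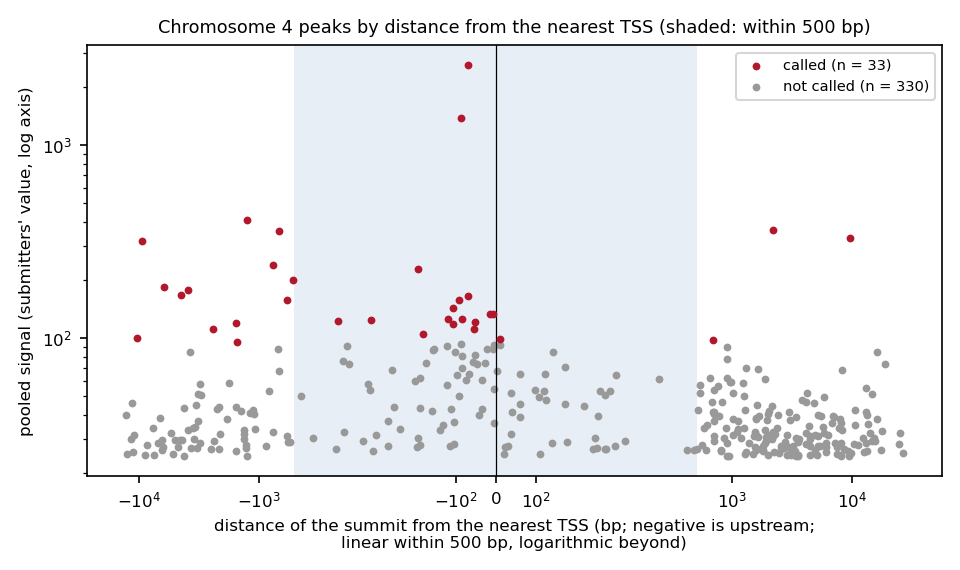
Pooled signal of the 363 chromosome 4 peaks (log axis) against the signed distance of the summit from the nearest TSS (negative is upstream), called in red and not called in grey. Called peaks lie mostly to the left of the TSS, 29 of 33, whereas 120 of the 330 peaks that were not called do. These counts were not computed for the other arms, where 79.4% of called promoter summits lay upstream.

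Outside promoters the called peaks of chromosome 4 were mostly intergenic. Of the 33, 13 (39.4%) had intergenic summits, 2 lay in introns and 1 in a 3′ UTR, whereas on the other arms 8.85% were intergenic and 18.0% were in introns. Of the chromosome 4 peaks in introns, 2 of 98 were called, and of the 66 in coding exons none were, against 10.4% and 0.692% on the other arms. Intergenic peaks went the other way, with 13 of 66 called (19.7%) on chromosome 4 and 11.7% on the other arms. Protein-coding genes had a median length of 10090 bp on chromosome 4 and 2156 bp on the other arms. The called peaks away from promoters had a higher median signal, 181, than those at promoters, 126. On the other arms these medians were 148 away from promoters and 203 at promoters, the opposite order. In replicate 1 the chromosome 4 medians were 83.1 away from promoters and 70.3 at promoters, and in replicate 2 they were 95.9 and 55.05, so both replicates gave the order of the pooled list.

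Most genes of chromosome 4 had a weak promoter summit and few had a called one. Of its 80 protein-coding genes, 64 (80%) had a pooled summit within 500 bp of a TSS, against a background of 59.1% over all 13945 genes. This share was not computed for each replicate, and the higher pooled density was seen in replicate 2 only. Chromosome 4 had 183 TSSs of all gene types for its 80 protein-coding genes, against 23398 for 13865 on the other arms. A called summit was found at 16 chromosome 4 genes (20%), against a background of 35.6%. Of genes with a pooled summit, 25% had a called one on chromosome 4 and 60.5% on the other arms. The strongest summits of the other 48 genes had signals from 26.6 to 92.8, with a median of 58.4, against 49.3 for such genes on the other arms. The upper end of these signals is limited by the call, which took the strongest pooled peaks. The gene count depended on the replicate. The strongest peaks of replicate 1 gave 27 bound genes (33.8%), close to the 36.6% of the other arms, and replicate 2 alone gave 13 (16.2%), against 34.0%. Of the 16 genes, 10 were bound in all 3 sets. The 12 genes that replicate 1 added included pho, CaMKII and ATPsynbeta, and its set lacked Asator.

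Divergent genes, those with a TSS within 1000 bp of another gene's TSS pointing away on the other strand, had a low bound share on chromosome 4 that differed widely between the replicates. Of 22 such genes, 3 were bound (13.6%), against a background of 60.1%. They were CG32017 and the pair Cadps and Dyrk3, which share 1 peak of 112. The strongest peaks of replicate 1 gave 9 of 22 (40.9%), against 62.0% on the other arms, and kept these 3. Those of replicate 2 gave 1 of 22 (4.55%), which was Zip102B, against 57.2%. Of the other 58 genes, 13 were bound (22.4%), against a background of 21.7%. For these 58, replicate 1 gave 18 (31.0%), against 22.1% on the other arms, and replicate 2 gave 12 (20.7%), against 20.8%. The 1000 bp limit was not varied. The 58 include ey, RpS3A and pan, whose oppositely oriented neighbours start farther away than that. ATPsynbeta, the mitochondrial ATP synthase beta subunit gene, and its neighbour CG11076 share a summit with a pooled signal of 92.7, just under the call. Pur-alpha and Tdg share 1 of 74.8, and ND-49, a complex I subunit gene, and Ephrin share 1 of 53.0. These counts are small, and no test was run on them.

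Signals on both sides of the call were close together. Just inside it were the peaks at Asator (99.4), in an intron of CG33941 (97.7) and beyond Sox102F (95.4). Just outside were the promoter of anne, with 92.8 (replicates 51.1 and 36.2), the ATPsynbeta start, with 92.7 (59.8 and 35.0), and an internal CG11076 start, with 92.6 and a summit in replicate 1 only. The smallest signal in the called set over all arms was 93.9. Because the called set was the strongest part of the pooled list, this boundary is a cutoff on signal. On chromosome 4, 17 peaks that were not called had signals above 80, a count that was not computed for the other arms.

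Among regulators of transcription and patterning, 5 of 16 listed chromosome 4 genes were bound, against 20% of all genes on the chromosome and a background of 35.6%. The strongest peaks of replicate 1 gave 7 of 16 (43.75%), against 33.8% of all genes on the chromosome and 36.6% on the other arms. Those of replicate 2 gave 5 (31.25%), against 16.2% and 34.0%. Besides ey, Sox102F, pan and onecut, the called set had lgs, which encodes the BCL9 cofactor of pan, with a pooled signal of 126 and with 68.2 and 52.1 in replicates 1 and 2. Among the others, the strongest promoter summit was that of pho, a DNA-binding Polycomb group gene, with 90.8. Pur-alpha had 74.8, zfh2 65.6, ci 65.4, the host cell factor gene Hcf 53.8, Mitf 53.0, sv 48.1, toy 44.3 and dati, listed under an older name, 43.3. fd102C and fuss had no pooled summit within 500 bp. Thus ey and toy, the pair of Pax6 genes, had promoter signals of 2606 and 44.3.

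Of the 10 genes listed under translation, RNA and protein turnover and energy, 2 were bound, RpS3A and gw. This was the same share as the 20% of all genes on the chromosome, and below the background of 35.6%. The strongest peaks of replicate 1 gave 4 of 10 (40%), with ATPsynbeta and Tdg added, against 33.8% of all genes on the chromosome. Those of replicate 2 gave 2 (20%), against 16.2%. In the pooled list ATPsynbeta had 92.7, Tdg 74.8, Arf4 59.8, Slip1 56.9, ND-49 53.0, the initiation factor gene eIF4G1 51.7 and the proteasome shuttle gene Rad23 43.0, while Cals had no pooled summit at its start.

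Of the 21 genes listed under neuronal, junction and signalling, 6 were bound (28.6%), against 20% of the chromosome and a background of 35.6%. They were Actbeta, Asator, the plexin genes PlexB and PlexA, Cadps and Dyrk3. Replicate 1 gave 7 of 21 (33.3%), against 33.8% of all genes on the chromosome. Replicate 2 gave 4 (19.0%), without PlexB, Cadps and Dyrk3, against 16.2%. PlexB, which encodes a semaphorin receptor, had a pooled signal of 121, with 73.4 in replicate 1 and 42.3 in replicate 2. PlexA had 118, with 62.6 and 62.8, and its window held both a DRE and a CHR word. Cadps, a gene for release of dense-core vesicles, and the kinase gene Dyrk3 had 112, with 70.3 and 36.3. Of the rest, 11 had pooled summits that were not called, from 26.6 at unc-13 and at 4E-T to 85.2 at Zip102B, and Gat, myo, RhoGAP102A and PIP4K had none. Of the 2 cytoskeleton and muscle genes listed, neither was bound, with 43.1 at bt, which encodes the giant muscle protein projectin, and no pooled summit at Kif3C. A called summit of 112 lay 2440 bp upstream of bt, between it and the 3′ end of ey.

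Transposable elements held 57 of the 363 summits (15.7%) on chromosome 4, against 0.385% on the other arms, and none of these 57 was called. On the other arms 17 of 114 such summits (14.9%) were called. Annotated elements covered 24.8% of chromosome 4 and 5.74% of the other arms, so on both the share of summits was below the share of sequence. Most, 37, lay in INE-1 elements, short repeats that are dense on this chromosome, with a median signal of 34.3 and a highest of 90.4. A further 7 lay in 1360 elements, DNA transposons, with a median of 32.5. Summits outside elements had a median of 35.2. Without the summits in elements, 10.8% of chromosome 4 peaks were called, against 20.5% on the other arms. Whether reads from repeats were kept or removed is not given in the sources used here.

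All 33 called peaks had a summit within 100 bp in the relaxed lists of both replicates, against a background of 95.1% over all called peaks. Of the 363 peaks, 208 had one in replicate 1 and 244 in replicate 2, against backgrounds of 66.5% and 71.2%, which compare with 57.3% and 67.2% on chromosome 4. Both replicates held 133 (36.6%), against a background of 47.1%, and 44 had none in either list. Summits of called peaks differed from the pooled summit by a median of 10 bp in replicate 1 and 5 bp in replicate 2. Across the 33 called peaks, Spearman's rho between the replicate signals was 0.657, against 0.844 over 5768 called peaks of the other arms. These correlations are descriptions across peaks that share libraries.

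Most called promoter peaks of chromosome 4 ranked better in replicate 1, as did most of those on the other arms. Within each replicate's own list, 12 of 17 had the better rank in replicate 1 (70.6%), against 55.8% on the other arms. Away from promoters it was 8 of 16 (50%), against 40.1%, so chromosome 4 lay above the other arms in both places. The counts are small. The widest gaps among promoters were at Cadps and Dyrk3 (rank 4067 in replicate 1 and 8876 in replicate 2), PlexB (3885 and 7473) and Gyf (3221 and 6422). The sequencing depth behind each list is unknown.

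**Figure D4:**
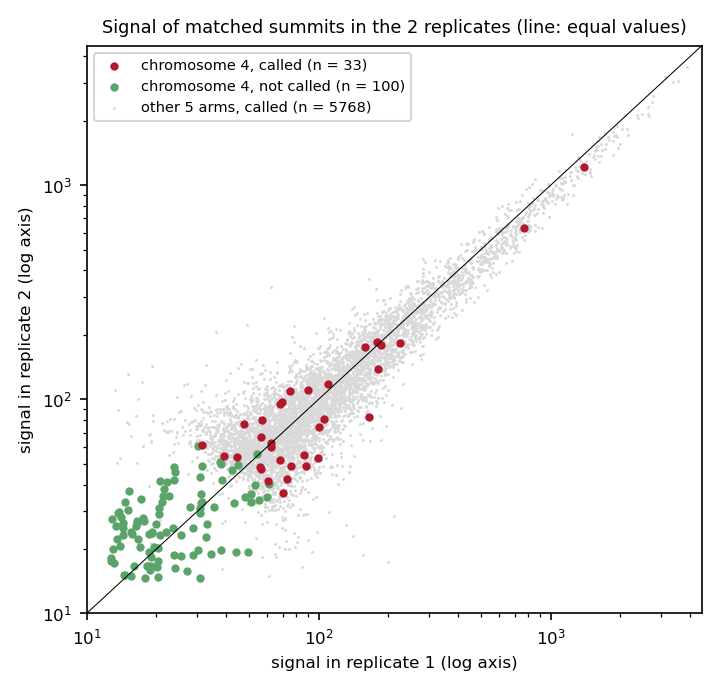
Signal in replicate 2 against replicate 1 (log axes) for summits found in both, with called chromosome 4 peaks in red (n = 33), other chromosome 4 peaks in green (n = 100) and called peaks of the other 5 arms in grey (n = 5768). The ey and Actbeta peaks rank 59 and 200 in the pooled list, and the other red points reach at most 224 in replicate 1 and 186 in replicate 2.

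Words of known factors at the called summits were counted within 50 bp of the summit. The Myb site was found at 6 of 33 summits (18.2%), against 9.54% of called summits on the other arms. The windows 300 bp to either side held it in 7.58% of cases, all windows of the same length on chromosome 4 in 6.10%, and windows at its TSSs in 6.56%. The 6 were the onecut promoter, the Dyrk3 and Cadps interval, the Asator intron, the summit upstream of Asator, and 2 summits between dati and lgs. The CHR word was at 9 of 33 (27.3%), against 23.0% on the other arms, 16.4% of windows at chromosome 4 TSSs, 13.6% of the flanking windows and 17.7% of all chromosome 4 windows. Within 100 bp of the summit the order was the opposite, with 36.4% on chromosome 4 and 43.0% on the other arms. Either word was present at 14 summits and both at 1. The 5-base word CGATA, which is contained in the DRE, was at 14 (42.4%), against 28.5% on the other arms, 28.4% of windows at chromosome 4 TSSs, 19.7% of flanks and 13.1% of all windows. Of these summits, 3 held a DRE, those at Actbeta, PlexA and the summit between ci and RpS3A (9.09% of the 33). The DRE was at 6.07% of called summits on the other arms, in 4.92% of windows at chromosome 4 TSSs, in 1.52% of flanks and in 0.884% of all windows of the chromosome. pan and PlexB had CGATA at 3 places each without a DRE. The word GGTCACACT of motif 1 and the E2F words (TTTCCCGC, TTTGGCGC, TTTCGCGC or TTTGCCGC) were in none of the 33 windows, against 3.97% and 2.26% on the other arms. GAGAG was at 3 summits (9.09%), against 9.81% on the other arms. TATAAA was at 7 (21.2%), against 12.4% on the other arms but 21.6% of all chromosome 4 windows. CAGGTAG and CACGTG were at none, against 0.412% and 1.05% on the other arms. With 33 summits, each one is 3.03% of the total, so these shares are coarse.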

How the data were processed

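The deposited data used were 8 peak lists in a 10-column format without headers, 4 on build dm6 and 4 on dm3. Per the deposited file listing, the submitters made a relaxed list for each replicate and 1 from pooled alignments, with a control library that was not analysed here, and took the IDR set from those. The signal values were deposited as the authors' caller wrote them. Its name and scale, the aligner and the cutoff used for IDR were not given in the sources used here, nor was the handling of reads from repeats. Fragments were 200 to 800 bp, per the labels. The 6100 called peaks were exactly the strongest 6100 of the pooled list. Summits were computed as start plus the deposited offset. The labels call the 2 replicates biological and give both the same fly line, so spread is between these samples. No list holds read counts, so depth is unknown and no counting interval is given.

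TSSs were all annotated transcript starts (Ensembl release 115) except those of transposable elements, 23581 positions on 6 chromosome arms. A summit was a promoter summit first, and otherwise took the first that applied of 5' UTR, coding sequence, 3' UTR, intron, or none of these. No peak end passed the end of its RefSeq sequence. A replicate held a peak when its relaxed list had a summit within 100 bp, and the nearest one gave the value. Arms were compared by counts and medians, with no test. The assignment and matching were tested on planted summits. Python 3.11.15, pandas 2.3.3 and scipy 1.17.1 were used.

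The chromosome, gene lists, words and rules were chosen with earlier results of these data known. Genes named were those of the 20 strongest called peaks, of up to 10 called peaks away from promoters, of 3 peaks on each side of the call, and of 4 lists. In the lists, 2 names gave the same gene and counted once, Ca-alpha1T lies on X and Tubgcp6 matched no gene. The lists are loose groupings by role. Tdg, Cals, 4E-T and Zip102B do not clearly belong to the role that names their list. Bound means a called summit within 500 bp of any TSS of the gene. dm3 lists gave counts and signal only.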

Additional observations from a re-analysis of the deposited data

How the results depend on the processing

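With a stricter call, the 3050 peaks of the called set with the higher signal, chromosome 4 kept 11 called peaks, 3.03% of its pooled peaks against 10.3% on the other arms. Of those 11, 27.3% were at promoters, against 79.8% on the other arms. Bound genes were then 3 of 80, against 21.7% of genes on the other arms. With the strongest peaks of 1 replicate alone, called peaks numbered from 29 to 43, or 7.84% to 14.6%, promoter shares ran from 48.3% to 60.5%, and bound genes from 13 to 27. The higher value was in each case without replicate 2. Over the 33 called peaks the median signal was 74.6 without replicate 1 and 75.5 without replicate 2, on the scales of those lists. The cause of these shifts was not tested. On dm3 the called peaks also numbered 33, of 354, and their median signal was 141. Promoter windows of 250 or 1000 bp gave promoter shares of 45.5% and 66.7%, against 63.3% and 78.3% on the other arms. They gave 16 and 19 bound genes of 80, against 30.9% and 39.0% of genes on the other arms. Within 25 bp of the summit the Myb site was at 12.1% of summits and within 100 bp at 24.2%, and the CHR word at 18.2% and 36.4%, the last against 43.0% on the other arms. A match within 50 bp in both replicates held for 31 of the 33 called peaks, against 81.2% on the other arms. Among the strongest peaks of both replicates 23 of the 33 were matched, against 78.3% on the other arms. Leaving out summits in transposable elements, and the replicate values for peak density, divergent and other genes, and gene lists, were chosen after seeing the data. Keeping a single summit per interval could change nothing on chromosome 4, where no interval repeats. Called intervals that overlap in part, such as those at an internal Sox102F TSS, stayed separate peaks. No paired analysis was possible because the series has 1 group.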

Other observations

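The word GTTGCCA recurred at called summits of chromosome 4. It was noticed in the sequences of the called summits and then counted, so its share on chromosome 4 follows in part from the choice. On either strand it was within 50 bp of 7 of 33 called summits (21.2%), with 2 copies each at ey, Actbeta, the summit 584 bp upstream of pan and a summit upstream of fuss. The other 3 were the first pan TSS, the onecut promoter and the summit beyond Sox102F. It was in 4.55% of the windows 300 bp from the called summits and 2.42% of windows at chromosome 4 summits that were not called. Windows at chromosome 4 TSSs held it in 2.73% of cases, and all windows of the chromosome in 1.48%. The other arms were not used to pick the word. There it was at 6.31% of 6067 called summits, 2.06% of the windows 300 bp away, 2.44% of summits that were not called and 2.04% of all windows. Its share was 10.1% in the strongest of 5 groups of about equal size of called summits on those arms, then 7.50%, 5.52% and 5.19%, and 3.29% in the weakest group. At their promoters it was at 7.53% of called summits, against 3.75% of all TSS windows. Outside promoters it was at 3.25% of their called summits. Peaks of 1 list are not replicates, other words were not searched in the same way, and no test was run.

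Called peaks were unevenly spread along chromosome 4. The 100000 bp from 400001 to 500000 held 10 of the 33 called peaks and 46 of the 363 pooled ones, with 16 of the 183 TSSs. These 10 of 46 compare with 9.09% called over the chromosome and a background of 20.3% over all pooled peaks. This bin and the stretch below are the extremes, picked after the counts were seen, and the counts are small. Called summits lay as close as 200 bp to each other, so they are not all separate places. The longest stretch without a called summit ran 227548 bp, between 179480 and 407028, and the 2 bins of 100000 bp that lie wholly within it held 19 and 24 pooled peaks, 14 and 15 TSSs. Genes in that stretch include Rad23 and Hcf, with strongest promoter signals of 43.0 and 53.8, and Crk, an adaptor gene, with 73.4.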
